A study of Homo sapiens with 24 samples.

Results

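EPH receptors and ephrins, 10 genes of the 25365 rows of the expression table, were followed in EGFR-mutant lung adenocarcinoma cells. Control cells and cells labelled as YAP1 knockout were studied under combined EGFR and MEK inhibition. The genes were taken from a list of names that was drawn up with earlier results of these data known. They are the class A receptors EPHA1, EPHA2 and EPHA4, the class A ligand EFNA1, the class B receptors EPHB2, EPHB3, EPHB4 and EPHB6, and the class B ligands EFNB1 and EFNB2. The other 12 EPH and ephrin genes with a row are described after them. PC9 and HCC4006, established lung adenocarcinoma lines with an activating EGFR mutation, were grown as control cells (CTRL) or as cells labelled YAP1 KO, that is, with the transcriptional coactivator YAP1 knocked out. Cells received either the solvent DMSO or OT, which is the EGFR inhibitor osimertinib at 100 nM with the MEK inhibitor trametinib at 30 nM, and were lysed after 24 hours. The 2 lines, both genotypes and both treatments made 8 groups of 3 replicates, with 1 mRNA library per replicate and 24 in all. The labels do not say whether a YAP1 KO line was 1 clone or a pool, nor what the CTRL cells carry. The spread behind each p-value is that between replicates of the same group. It was pooled over the groups of 1 line, or of both lines for differences between lines. The headers name 1 YAP1 KO line per parent line, so that loss of YAP1 cannot be told apart from other differences of that line.

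EPH receptors are receptor tyrosine kinases whose ligands, the ephrins, sit on the surface of neighbouring cells, so that signalling needs cell contact. Class A ephrins hold to the membrane by a lipid anchor and class B ephrins span it. A bound receptor signals into its own cell (forward signalling), and a bound ephrin can signal back into the cell that carries it (reverse signalling). In epithelial and lung cancer cells EPHA2 is known both for limiting growth when bound by ephrin-A1 and for promoting motility without ligand.

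Levels are in FPKM as the authors computed them, which divides reads by transcript length and by library size, so that levels of different genes can be set side by side. Summed over all rows, the libraries held 507120 to 660459 FPKM, and treated libraries had lower sums than all untreated ones of their line. Read from the steps between low values, depth was 0.94 to 1.40 relative to PC9 CTRL DMSO replicate 1, and the absolute depth is unknown. In such bulk libraries fewer cells that express a gene and less of its RNA per cell cannot be told apart. Replicate 1 of HCC4006 CTRL OT had both the lowest sum and the greatest depth. Without treatment the mean level of YAP1 itself was 42.9 FPKM in control and 12.1 in YAP1 KO cells of PC9, and 18.2 against 4.24 in HCC4006. Every YAP1 KO library lay below every CTRL library of its line. Some YAP1 RNA thus remained in YAP1 KO cells, and these data hold no protein levels. Of 9 epithelial and lung markers, 6 reached 1 FPKM in at least 3 libraries in PC9 and 8 in HCC4006. In PC9 the lung markers NKX2-1, NAPSA and SFTPB did not exceed 0.938, 0.627 and 0.0277 FPKM.

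The upstream promoters of EPHA2 and EFNA1 are printed here as those of the receptor and ligand whose levels moved most in opposite directions. YAP1 binds DNA through TEAD proteins, whose core motif is GGAATG. Both sequences are from RefSeq on GRCh38.p14, 250 bases ending just before the annotated start, whereas the expression values were made on an earlier build. Capitals mark the single match found, which is the TEAD core read on the opposite strand.
EPHA2, chr1:16156070-16156319, minus strand: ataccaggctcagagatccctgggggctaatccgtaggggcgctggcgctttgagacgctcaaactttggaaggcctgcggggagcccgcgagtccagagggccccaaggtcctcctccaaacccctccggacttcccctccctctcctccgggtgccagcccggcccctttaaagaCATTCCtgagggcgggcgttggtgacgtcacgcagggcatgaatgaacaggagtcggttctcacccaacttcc
EFNA1, chr1:155127626-155127875, plus strand: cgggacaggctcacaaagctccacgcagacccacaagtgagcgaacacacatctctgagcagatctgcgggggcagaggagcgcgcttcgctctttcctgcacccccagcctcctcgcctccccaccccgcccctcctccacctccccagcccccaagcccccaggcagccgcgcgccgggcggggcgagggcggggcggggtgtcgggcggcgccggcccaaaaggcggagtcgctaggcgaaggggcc
The match in EPHA2 lies 73 to 68 bases before the start. Windows of 300 bases, 250 before to 50 after the start, were searched on both strands for GGAATG, for the AP-1 motif TGANTCA and for the ETS motif CCGGAA. All 10 genes matched a RefSeq entry, with 12 windows. EPHA2 alone of the 10 held the TEAD core, which 14.0% of 35116 windows of that length hold. None held the AP-1 motif, found in 7.71% of all windows, or the ETS motif, found in 17.2%. These are matches of letters, and no binding was measured. A part of any motif in the changes of these genes was not tested.

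In untreated control cells EPHA2 was the most abundant of the 10 in both lines. In PC9 CTRL cells under DMSO its mean was 25.1 FPKM, followed by EPHB4 at 19.2, EFNB2 at 10.8, EPHB6 at 10.4, EFNA1 at 9.55, EPHB2 at 9.11, EFNB1 at 7.33, EPHA1 at 6.21, EPHB3 at 2.31 and EPHA4 at 1.60. The ranges of EFNB2 and EPHB6 overlapped, as did those of EFNA1 and EPHB2, and no other neighbours in this order did. HCC4006 CTRL cells had EPHA2 at 39.9 FPKM, EPHB2 at 35.0, EFNA1 at 17.3, EPHB4 at 12.9, EPHB6 at 7.35, EFNB1 at 6.07, EPHA4 at 4.53, EFNB2 at 3.98, EPHA1 at 3.17 and EPHB3 at 2.35, and no neighbours overlapped. Under OT the first place went to EFNA1 in all 4 groups, and in YAP1 KO cells under OT EPHA2 came last in both lines. Taken as the highest of the 24 libraries over the lowest, EPHA2 varied most of the 10, 63.0-fold from 0.651 to 41.0 FPKM, and EPHB4 least, 1.54-fold from 12.8 to 19.7.

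**Figure D1:**
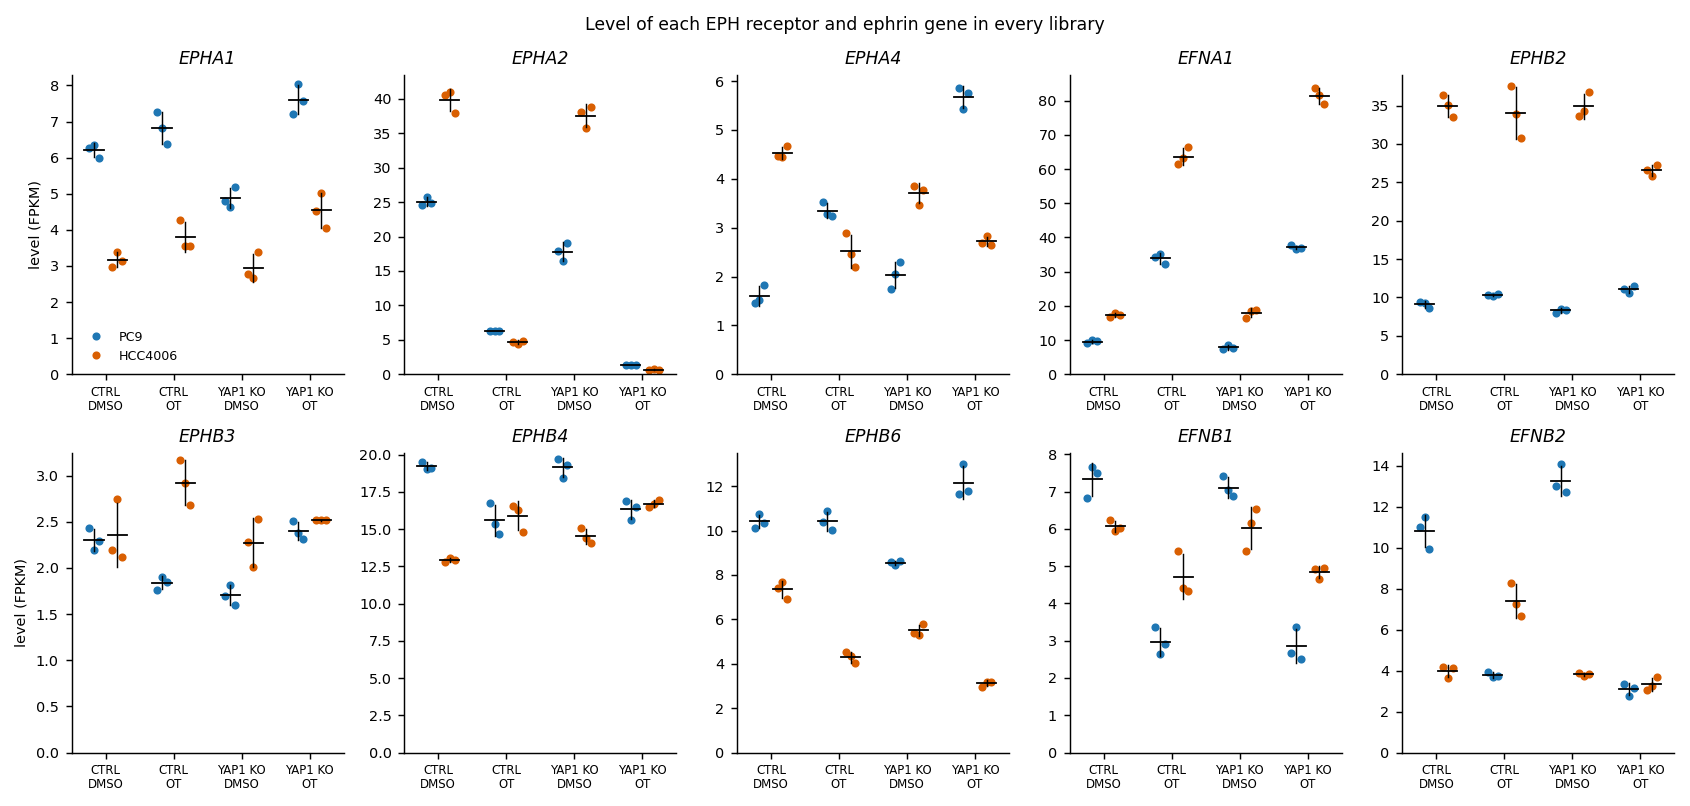
Level of each gene (FPKM, linear axis from 0) in every library, by genotype and treatment, with PC9 in blue and HCC4006 in orange; points are libraries, bars the mean of 3 and lines the SD. EPHA2 falls from 25.1 and 39.9 FPKM in untreated control cells to 1.33 and 0.679 in YAP1 KO cells under OT, while EFNA1 reaches 37.1 and 81.4.

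How these genes responded to OT was examined first. Differences are on the log2(FPKM + 1) scale, which understates the change of low genes, and a gene is said to have risen or fallen where limma's Benjamini-Hochberg adjusted p over all genes tested was under 0.05. In PC9 CTRL cells 3 of the 10 rose and 5 fell, where 32.0% of the 12685 genes tested rose and 40.9% fell. In PC9 YAP1 KO cells 6 rose and 4 fell, against 36.9% and 41.4% of all genes. Among the HCC4006 CTRL cells 4 rose and 4 fell, where 45.0% and 36.6% of 13113 genes did. In HCC4006 YAP1 KO cells 3 rose and 5 fell, beside 46.4% and 36.5%. OT thus changed most genes, and the number of these 10 that changed was near that background. With every HCC4006 library rescaled to the same FPKM sum, the split was 5 higher and 3 lower in CTRL cells and 4 higher and 2 lower in YAP1 KO cells, and the median of all genes moved from 0.09 to 0.28 and from 0.11 to 0.28. In CTRL cells EPHA2 and EFNB1 fell and EFNA1 rose in both lines, whereas EPHA4, EPHB3, EPHB4 and EFNB2 changed in opposite directions.

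**Figure D2:**
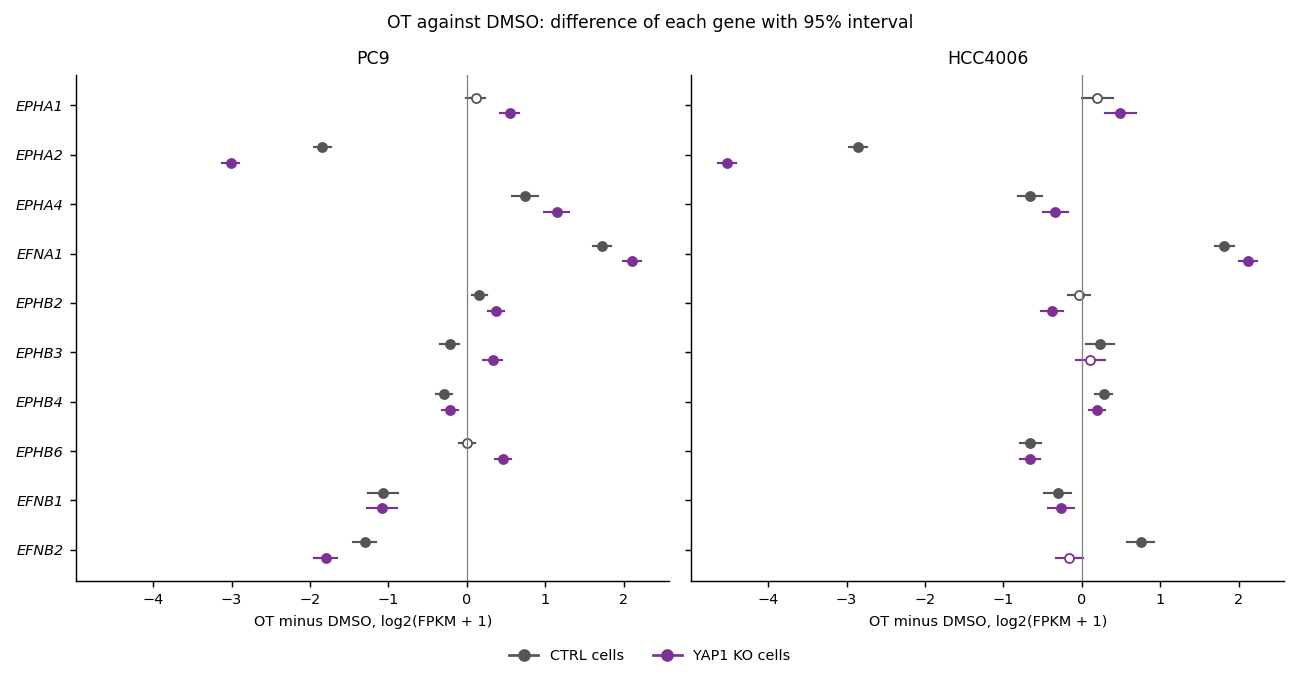
Difference between OT and DMSO (log2 of FPKM + 1) for each gene in CTRL (grey) and YAP1 KO (purple) cells, PC9 left and HCC4006 right; points are estimates from 3 libraries a group, lines the 95% intervals, and filled points passed an adjusted p of 0.05. EPHA2 lies farthest left in every set, at -1.85 to -4.52, and EFNA1 farthest right, at 1.73 to 2.12.

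How YAP1 KO cells differed from CTRL cells was examined next. Under DMSO PC9 YAP1 KO cells had more of 2 of the 10 genes than CTRL cells and less of 5, where 19.8% and 20.0% of all genes passed as higher and lower. In HCC4006 1 was higher and 2 were lower, against 9.20% and 8.65%. Under OT PC9 YAP1 KO cells had more of 3 and less of 2, beside 28.5% and 25.2%, and more of 6 and less of 2 when libraries were rescaled to the same sum. HCC4006 had 1 higher and 4 lower under OT, beside 27.2% and 16.4%. EPHA2 and EFNB2 were the 2 genes lower in YAP1 KO cells of both lines under OT. The interaction, the OT response of the knockout less that of the control, was above 0 for 6 genes and below 0 for 2 in PC9, where 13.2% and 13.8% of all genes passed. In HCC4006 it was above 0 for 2 and below 0 for 3, beside 10.5% and 8.18%. The comparisons of a line share their libraries, so their values are not independent of each other.

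**Figure D3:**
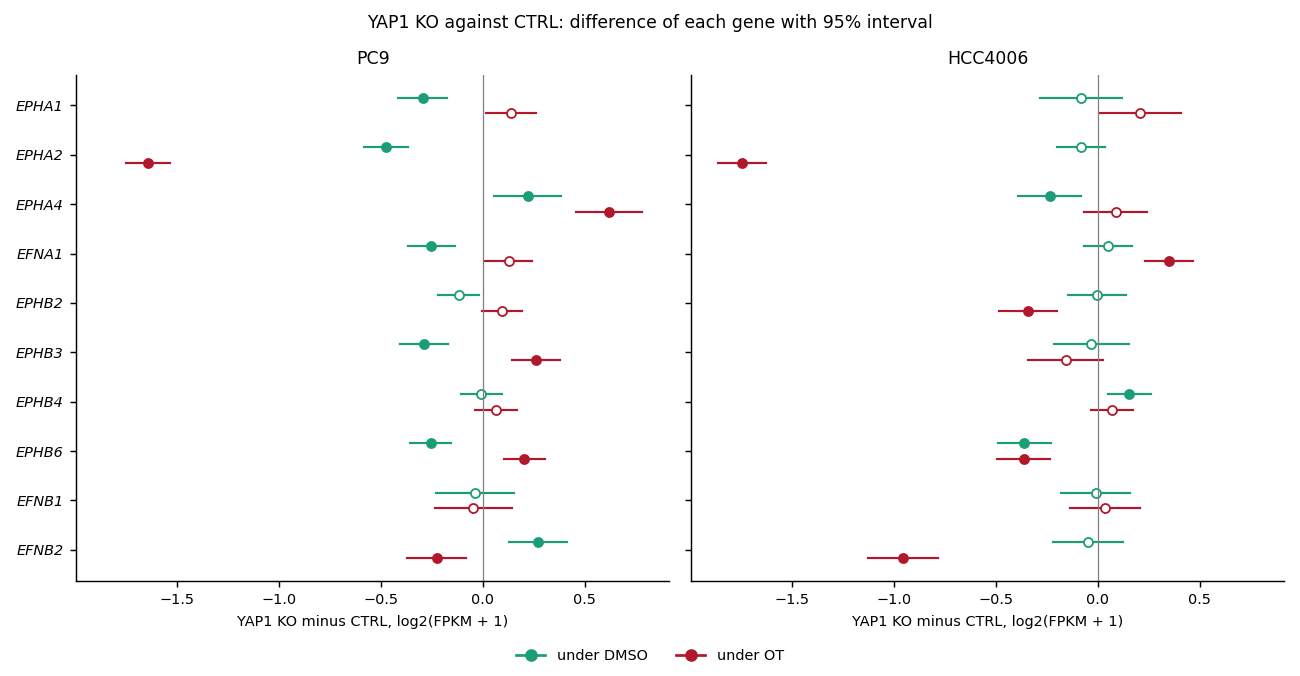
Difference between YAP1 KO and CTRL cells (log2 of FPKM + 1) for each gene under DMSO (green) and OT (red), PC9 left and HCC4006 right, with 95% intervals; filled points passed an adjusted p of 0.05. Under OT EPHA2 stands at -1.64 in PC9 and -1.75 in HCC4006, and under DMSO at -0.47 and -0.08.

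Between the lines, 4 of the 10 genes were higher and 5 lower in HCC4006 than in PC9 CTRL cells under DMSO, where 39.2% and 43.4% of 13996 genes were. Under OT 5 were higher and 4 lower, beside 44.7% and 40.0%. The OT response of CTRL cells was more positive in HCC4006 for 4 genes and more negative for 4, against 39.3% and 26.0% of all genes. The difference between YAP1 KO and CTRL cells under DMSO was more positive in HCC4006 for 2 genes and more negative for 2, against 15.7% and 13.7%. Under OT it was more positive for 1 and more negative for 5, against 24.4% and 18.0%. For the interaction none was more positive by limma, with or without adjustment of its p-values, and 4 were more negative, against 7.50% and 6.82%.

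EPHA2, the main ephrin-A1 receptor of epithelial cells, fell with OT in both lines and fell further in YAP1 KO cells. Its level in PC9 CTRL cells was 24.6, 25.8 and 24.8 FPKM under DMSO and 6.23, 6.30 and 6.24 under OT. PC9 YAP1 KO cells had 17.9, 16.4 and 19.1 FPKM under DMSO and 1.30, 1.29 and 1.39 under OT. The 4 groups of PC9 did not overlap, and their order ran from untreated control cells at the top to treated YAP1 KO cells at the bottom. HCC4006 CTRL cells had 40.6, 41.0 and 38.0 FPKM under DMSO and 4.74, 4.32 and 4.83 under OT. HCC4006 YAP1 KO cells had 38.1, 35.8 and 38.9 FPKM under DMSO and 0.651, 0.717 and 0.667 under OT. In HCC4006 the untreated groups overlapped, and the 3 treated YAP1 KO libraries were the only ones of the 24 under 1 FPKM.

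The mean FPKM of EPHA2 under OT was 4.01-fold lower than under DMSO in PC9 CTRL cells and 13.4-fold lower in PC9 YAP1 KO cells. In HCC4006 it was 8.61-fold lower in CTRL cells and 55.4-fold lower in YAP1 KO cells. On the log2(FPKM + 1) scale the OT differences were -1.85 (SE 0.0494) and -3.01 in PC9, and -2.86 (SE 0.0532) and -4.52 in HCC4006, with adjusted p of at most 1.63e-11. Among all genes tested, ordered from the lowest difference, EPHA2 took place 83 in PC9 CTRL, 38 in PC9 YAP1 KO, 147 in HCC4006 CTRL and 29 in HCC4006 YAP1 KO cells.

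Without treatment the YAP1 KO difference of EPHA2 was -0.47 in PC9 (95% interval -0.58 to -0.37, adjusted p = 1.41e-05), place 529 from the lowest, and it did not pass the test in HCC4006 at -0.08 (interval -0.20 to 0.03, adjusted p = 0.333). Under OT the mean in YAP1 KO cells was 4.71-fold lower than in CTRL cells in PC9 and 6.82-fold lower in HCC4006. These differences were -1.64 (adjusted p = 4.49e-10) and -1.75 (adjusted p = 5.18e-10), place 35 from the lowest among genes of PC9 and place 57 in HCC4006. The interaction had a value of -1.17 for PC9 (SE 0.0698, adjusted p = 6.92e-07) and of -1.66 for HCC4006 (SE 0.0752, adjusted p = 1.09e-07), at places 61 and 46. With a pseudocount of 0.1 in place of 1 the interaction of EPHA2 was -1.66 and -2.52. Leaving out any 1 library kept it between -1.22 and -1.12 in PC9 and between -1.70 and -1.63 in HCC4006.

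The lines differed in the size of these changes. The OT response of EPHA2 in CTRL cells was more negative in HCC4006 by 1.01 on the log2 scale (difference -1.01, adjusted p = 1.44e-10). The interaction was also more negative there (difference -0.49, adjusted p = 0.00170), and by more with a pseudocount of 0.1 (-0.86, adjusted p = 5.98e-05). For the YAP1 KO difference under OT the lines did not differ past the threshold with a pseudocount of 1 (difference -0.10, interval -0.25 to 0.04, adjusted p = 0.242), but did with a pseudocount of 0.1 (difference -0.45, adjusted p = 0.000184).

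EFNA1, which encodes ephrin-A1, the preferred ligand of EPHA2, rose with OT in each line and genotype. It was in PC9 CTRL cells at 9.06, 9.89 and 9.69 FPKM under DMSO and 34.2, 35.2 and 32.2 under OT. PC9 YAP1 KO cells had 7.36, 8.59 and 7.65 FPKM under DMSO and 37.7, 36.5 and 37.1 under OT. All treated PC9 libraries thus lay above 30 FPKM and all untreated ones below 10. HCC4006 CTRL cells had 16.7, 17.9 and 17.4 FPKM under DMSO and 61.4, 63.1 and 66.4 under OT. HCC4006 YAP1 KO cells had 16.5, 18.5 and 18.9 FPKM under DMSO and 83.7, 81.7 and 78.9 under OT. Treated libraries did not overlap with untreated ones in this line either, and the YAP1 KO libraries were the higher ones under OT.

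The mean of EFNA1 was 3.55-fold higher under OT in PC9 CTRL cells and 4.71-fold higher in YAP1 KO cells, and 3.67-fold and 4.53-fold higher in HCC4006. The OT differences on the log2 scale, CTRL before YAP1 KO, came to 1.73 and 2.11 for PC9 and to 1.82 and 2.12 for HCC4006 (adjusted p of at most 4.89e-11). Between the lines the OT response of CTRL cells differed by 0.09 (interval -0.07 to 0.25, adjusted p = 0.295), or by 0.25 with an equal FPKM sum (adjusted p = 0.00715). For PC9 the interaction was 0.38 (SE 0.0748, adjusted p = 0.00296), and for HCC4006 0.30 (SE 0.0761, adjusted p = 0.0164). Under DMSO EFNA1 was lower in YAP1 KO cells of PC9 (difference -0.25, adjusted p = 0.00261), while HCC4006 gave 0.05 (adjusted p = 0.600). Under OT it was higher in YAP1 KO cells of HCC4006 (difference 0.35, adjusted p = 0.000272). The PC9 value under OT, 0.13, did not pass (adjusted p = 0.0605), and passed with libraries rescaled to the same sum (0.17, adjusted p = 0.0196). It also passed without replicate 1 (adjusted p = 0.0483) or replicate 2 (adjusted p = 0.0272) of PC9 YAP1 KO DMSO.

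Set against each other, the level of EFNA1 divided by that of EPHA2 was below 1 in every untreated library and above 5 in every treated one. This ratio was chosen after its values were seen and was not tested. Its mean was 0.381 in PC9 CTRL cells under DMSO, 0.445 in YAP1 KO cells under DMSO, 5.42 in CTRL cells under OT and 28.0 ± 1.22 (SD, n = 3) in YAP1 KO cells under OT. In HCC4006 the means were 0.435, 0.479, 13.8 and 120.2 ± 7.49 in the same order. The last of these divides by EPHA2 levels of only 0.651 to 0.717 FPKM, for which no counting error can be given, so its size is uncertain. The same change shows in the shares of the summed FPKM of the 4 class A genes. EPHA2 made up 59.1% of that sum in untreated PC9 CTRL cells, 12.4% under OT and 2.57% under OT in YAP1 KO cells. In HCC4006 the shares of EPHA2 were 61.4%, 6.21% and 0.760%, and those of EFNA1 were 26.7%, 85.3% and 91.1%. The sum itself was 42.4, 50.3 and 51.7 FPKM in these PC9 groups and 64.9, 74.6 and 89.4 in those of HCC4006.

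**Figure D4:**
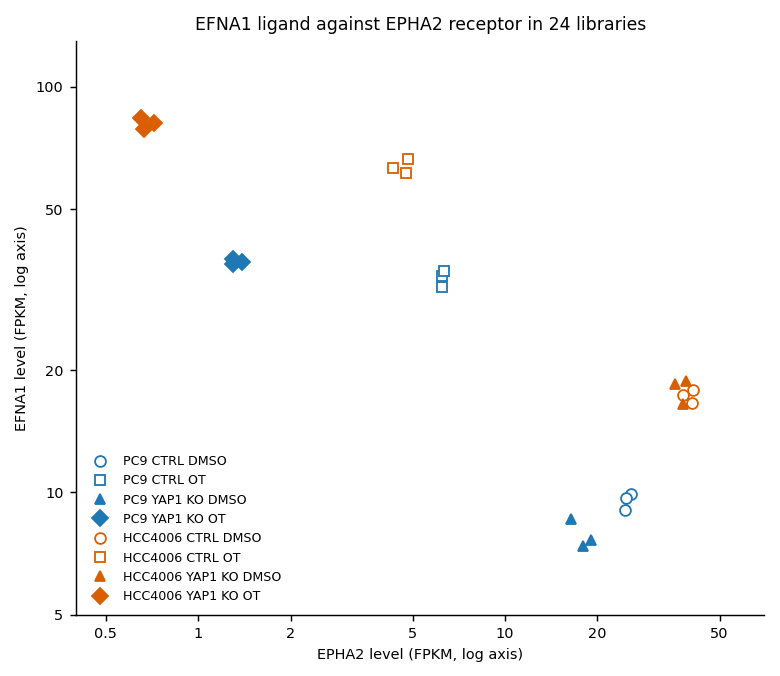
Level of EFNA1 against that of EPHA2 (FPKM, both axes logarithmic) in the 24 libraries; blue is PC9, orange HCC4006, open circles CTRL DMSO, open squares CTRL OT, filled triangles YAP1 KO DMSO and filled diamonds YAP1 KO OT. Untreated libraries lie at the lower right and treated YAP1 KO libraries at the upper left, where the mean ratio of EFNA1 to EPHA2 is 28.0 in PC9 and 120.2 in HCC4006. The HCC4006 ratio divides by EPHA2 levels of 0.651 to 0.717 FPKM.

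EPHA4, a receptor that binds ephrins of both classes, changed in opposite directions in the 2 lines. PC9 CTRL cells had 1.46, 1.51 and 1.83 FPKM under DMSO and 3.53, 3.28 and 3.24 under OT. PC9 YAP1 KO cells had 1.75, 2.05 and 2.30 FPKM under DMSO and 5.87, 5.43 and 5.75 under OT, the highest of its levels. In HCC4006 CTRL cells EPHA4 was at 4.48, 4.45 and 4.67 FPKM under DMSO and 2.89, 2.45 and 2.201 under OT, and its YAP1 KO libraries ranged from 2.65 to 3.85. The treated libraries were higher than the untreated ones without overlap in PC9, and lower without overlap in HCC4006. The OT difference in CTRL cells was 0.74 for PC9 (adjusted p = 1.90e-06), against -0.66 for HCC4006 (adjusted p = 2.48e-06), and the lines differed by -1.40 (HCC4006 minus PC9, adjusted p = 3.20e-10). In YAP1 KO cells the OT differences were 1.14 (adjusted p = 2.43e-08) and -0.34 (adjusted p = 0.000735), the latter lost with libraries rescaled to the same sum (-0.19, adjusted p = 0.0896).

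Under OT the YAP1 KO cells of PC9 had more EPHA4 than CTRL cells (difference 0.62, adjusted p = 2.53e-05), and HCC4006 gave 0.09 (adjusted p = 0.341), or 0.16 (adjusted p = 0.0480) without replicate 1 of HCC4006 CTRL OT. The interaction of EPHA4 was 0.40 for PC9 (adjusted p = 0.0152), against 0.32 for HCC4006 (adjusted p = 0.0426), and the HCC4006 call was lost in 11 of 12 fits that left out 1 library, with adjusted p up to 0.103 without replicate 2 of HCC4006 YAP1 KO DMSO. With a pseudocount of 0.1 the call was lost in both lines (adjusted p = 0.0559 and 0.0565), and in HCC4006 also with no filter and with either rescaling (adjusted p up to 0.182). Under DMSO EPHA4 was higher in YAP1 KO cells of PC9 (0.22, adjusted p = 0.0337) and lower in those of HCC4006 (-0.23, adjusted p = 0.0390). These were lost in 4 and 10 of 12 fits leaving out 1 library, with adjusted p up to 0.136 without replicate 3 of PC9 YAP1 KO DMSO and 0.144 without replicate 2 of HCC4006 YAP1 KO DMSO. Both were also lost with no filter (adjusted p = 0.0577 and 0.0607). The HCC4006 call was lost as well with a pseudocount of 0.1 (adjusted p = 0.0524) and with an equal FPKM sum (-0.20, adjusted p = 0.193).

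EPHA1, the first EPH receptor to be cloned, rose with OT in YAP1 KO cells, and its difference in CTRL cells did not pass the test. Its level in PC9 CTRL cells was 6.28, 6.36 and 5.998 FPKM under DMSO and 7.27, 6.81 and 6.39 under OT, and in YAP1 KO cells 4.81, 4.64 and 5.19 under DMSO and 7.22, 8.03 and 7.58 under OT. The untreated YAP1 KO libraries were thus the low ones in PC9. The OT differences were 0.12 in CTRL cells (adjusted p = 0.0779) and 0.55 in YAP1 KO cells (adjusted p = 1.55e-06), with an interaction of 0.43 (adjusted p = 0.00170). In HCC4006 EPHA1 lay between 2.66 and 5.03 FPKM, and OT gave 0.20 in CTRL cells (adjusted p = 0.0615) and 0.49 in YAP1 KO cells (adjusted p = 0.000299). With libraries rescaled to the same sum the CTRL difference passed in each line (0.17, adjusted p = 0.0216, and 0.37, adjusted p = 0.00799). In PC9 it passed with median-of-ratios scaling too (0.18, adjusted p = 0.0134). It also passed without replicate 3 of PC9 CTRL OT (adjusted p = 0.0324) and without replicate 3 of HCC4006 YAP1 KO DMSO (adjusted p = 0.0427). The HCC4006 interaction of 0.29 did not pass (adjusted p = 0.148). Under DMSO EPHA1 was lower in YAP1 KO cells of PC9 (-0.30, adjusted p = 0.00125). Under OT the YAP1 KO differences were 0.14 for PC9 (adjusted p = 0.0525), against 0.21 for HCC4006 (adjusted p = 0.0854), and passed without replicate 1 of PC9 CTRL OT (adjusted p = 0.0242) and of HCC4006 CTRL OT (adjusted p = 0.0295). The PC9 difference also passed with an equal FPKM sum (0.18, adjusted p = 0.0234). EPHA1 overlaps the antisense gene EPHA1-AS1 in RefSeq, whose row did not exceed 0.102 FPKM.

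Of the class B receptors, which bind ephrins of the transmembrane class, EPHB2 separated the lines most. EPHB2 is known for sorting cells at tissue borders, and its mean was 3.84-fold higher in HCC4006 than in PC9 CTRL cells under DMSO (log2 difference 1.83, adjusted p = 4.68e-17). In HCC4006 CTRL cells it was at 36.4, 35.1 and 33.5 FPKM under DMSO and 37.6, 33.9 and 30.8 under OT. HCC4006 YAP1 KO cells had 33.7, 34.3 and 36.7 FPKM under DMSO and 26.6, 25.9 and 27.3 under OT. The treated YAP1 KO libraries were below all other HCC4006 libraries, which overlapped among themselves. There the YAP1 KO difference under OT was -0.34 (adjusted p = 0.00119). The OT difference of these cells, -0.38 (adjusted p = 0.000145), was lost with libraries rescaled to the same sum (-0.19, adjusted p = 0.0680), and that of CTRL cells was -0.04 (adjusted p = 0.583). In PC9 EPHB2 moved the other way with OT, by 0.16 in CTRL cells (adjusted p = 0.00681) and 0.37 in YAP1 KO cells (adjusted p = 8.54e-06), within a range of 7.96 to 11.5 FPKM. Its YAP1 KO differences in PC9 were -0.12 under DMSO (adjusted p = 0.0553) and 0.09 under OT (adjusted p = 0.101). The value under DMSO passed with median-of-ratios scaling (adjusted p = 0.0431) and with a filter at FPKM of 5 (adjusted p = 0.0466). That under OT passed with an equal FPKM sum (0.13, adjusted p = 0.0360).

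The interaction of EPHB2 was 0.21 for PC9 (adjusted p = 0.0287), against -0.34 for HCC4006 (adjusted p = 0.0230), and the lines differed (-0.55, adjusted p = 0.00197). The PC9 value was lost in 5 of 12 fits that left out 1 library, with adjusted p up to 0.0707 without replicate 3 of PC9 YAP1 KO OT. The HCC4006 value was lost in 3 of 12, with adjusted p up to 0.0592 without replicate 3 of HCC4006 YAP1 KO DMSO. It was also lost with libraries rescaled to the same sum (-0.37, adjusted p = 0.0709).

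EPHB3, a close relative of EPHB2 with which it shares roles in epithelial cell positioning, stayed between 1.60 and 3.17 FPKM in all 24 libraries. In PC9 it was at 2.43, 2.19 and 2.29 FPKM in CTRL cells under DMSO, 1.76, 1.90 and 1.85 under OT, 1.70, 1.82 and 1.60 in YAP1 KO cells under DMSO and 2.51, 2.38 and 2.31 under OT. Treatment and knockout each went with a lower level in PC9, whereas the libraries of cells with both overlapped those of untreated control cells. OT changed EPHB3 by -0.22 in PC9 CTRL cells (adjusted p = 0.00291) and by 0.33 in YAP1 KO cells (adjusted p = 0.000116), an interaction of 0.55 (adjusted p = 0.000279). YAP1 KO cells of PC9 had less EPHB3 than CTRL cells under DMSO (-0.29, adjusted p = 0.00120) and more under OT (0.26, adjusted p = 0.00154). In HCC4006 the OT difference was 0.23 in CTRL cells (adjusted p = 0.0231) and 0.11 in YAP1 KO cells (adjusted p = 0.256). The CTRL call was lost with median-of-ratios scaling (0.19, adjusted p = 0.0666) and without replicate 1 or 3 of HCC4006 CTRL DMSO or replicate 1 of HCC4006 CTRL OT, with adjusted p of 0.0775 to 0.0916. With an equal FPKM sum the values were 0.39 and 0.25 and both passed, the latter with adjusted p = 0.0319. The interactions of the lines differed by -0.67 (adjusted p = 0.00187).

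EPHB4, the receptor of ephrin-B2 known from the separation of arteries and veins, had the smallest ratio of its highest to its lowest library. PC9 CTRL cells had 19.5, 19.1 and 19.1 FPKM under DMSO and 16.7, 15.3 and 14.7 under OT, and HCC4006 CTRL cells 12.8, 13.1 and 12.9 under DMSO and 16.6, 16.3 and 14.8 under OT. EPHB4 was thus higher in PC9 without treatment, and the lines overlapped under OT. The OT difference in CTRL cells was -0.29 for PC9 (adjusted p = 0.000133), against 0.28 for HCC4006 (adjusted p = 0.000185), and the lines differed by 0.56 (adjusted p = 2.77e-07). In YAP1 KO cells OT gave -0.22 (adjusted p = 0.00102) and 0.19 (adjusted p = 0.00274), the first lost with an equal FPKM sum (-0.12, adjusted p = 0.0515) and the second with median-of-ratios scaling (0.10, adjusted p = 0.0785). With an equal sum the HCC4006 values were 0.49 in CTRL and 0.38 in YAP1 KO cells. The interaction did not pass in PC9 (0.07, interval -0.07 to 0.21) or in HCC4006 (-0.08, interval -0.23 to 0.06). A rise of 0.15 in HCC4006 YAP1 KO cells under DMSO (adjusted p = 0.0460) was lost in 10 of 12 fits that left out 1 library, with adjusted p up to 0.172 without replicate 1 of HCC4006 YAP1 KO DMSO. That rise was also lost with median-of-ratios scaling (0.13, adjusted p = 0.0841) and with an equal FPKM sum (0.19, adjusted p = 0.0966). EPHB4 overlaps SLC12A9 in RefSeq, whose row reached 11.7 FPKM, and EPHA2 overlaps EPHA2-AS1, not analysed here. Whether the authors counted by strand is not stated, so reads of such a pair cannot be told apart.

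EPHB6, a member whose kinase domain is inactive, fell with OT and with YAP1 KO in HCC4006. There it was at 7.43, 7.69 and 6.92 FPKM in CTRL cells under DMSO, 4.51, 4.35 and 4.03 under OT, 5.39, 5.31 and 5.81 in YAP1 KO cells under DMSO and 2.96, 3.20 and 3.20 under OT. The 4 groups did not overlap. The OT difference was -0.66 in each genotype (adjusted p = 4.93e-07 and 4.21e-07), the YAP1 KO difference was -0.36 in each treatment (adjusted p = 0.00149 and 0.000428), and the interaction was 0.00 (interval -0.19 to 0.18, adjusted p = 0.989). In PC9 the CTRL libraries overlapped at 10.1, 10.7 and 10.4 FPKM under DMSO and 10.4, 10.9 and 10.03 under OT, and YAP1 KO cells had 8.57, 8.45 and 8.64 under DMSO and 11.7, 13 and 11.8 under OT. Here YAP1 KO went with less EPHB6 without treatment (-0.26, adjusted p = 0.000907) and with more under OT (0.20, adjusted p = 0.00276). The interaction in PC9 was 0.46 (adjusted p = 0.000317), and the lines differed in it by -0.46 (adjusted p = 0.00343).

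EFNB1, a class B ligand whose gene lies on the X chromosome, fell with OT, and none of its YAP1 KO differences passed the test. Untreated PC9 CTRL cells had 6.83, 7.67 and 7.49 FPKM and treated ones 3.37, 2.63 and 2.90, and YAP1 KO cells had 7.41, 7.03 and 6.87 under DMSO and 2.66, 3.37 and 2.52 under OT. The treated PC9 libraries lay below all untreated ones, and the genotypes overlapped within each treatment. The mean was 2.47-fold lower under OT in CTRL cells and 2.49-fold lower in YAP1 KO cells, with differences of -1.07 (adjusted p = 2.66e-07) and -1.08 (adjusted p = 1.78e-07). The interaction was -0.01 (interval -0.28 to 0.26), and the YAP1 KO differences of the lines under DMSO and OT were -0.04, -0.05, -0.01 and 0.03, with adjusted p of 0.673 to 0.946. In HCC4006 the fall was smaller, -0.31 (adjusted p = 0.00272) and -0.27 (adjusted p = 0.00717), and was lost when libraries were rescaled to the same sum (-0.12, adjusted p = 0.298, and -0.10, adjusted p = 0.382). The lines differed in the OT response of CTRL cells by 0.76 (adjusted p = 1.55e-05).

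EFNB2, the class B ligand that binds EPHB4, fell with OT in PC9 and rose with OT in HCC4006 control cells. PC9 CTRL cells had 11.02, 11.5 and 9.94 FPKM under DMSO and 3.94, 3.67 and 3.75 under OT. PC9 YAP1 KO cells had 13, 14.1 and 12.7 FPKM under DMSO and 3.36, 2.78 and 3.15 under OT. The YAP1 KO libraries were thus the higher ones without treatment and the lower ones with it. HCC4006 CTRL cells had 4.17, 3.66 and 4.11 FPKM under DMSO and 8.27, 7.26 and 6.66 under OT. HCC4006 YAP1 KO cells had 3.87, 3.73 and 3.85 FPKM under DMSO and 3.03, 3.27 and 3.68 under OT. Only the treated control cells of HCC4006 stood out, above the other 3 groups of the line.

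The OT difference of EFNB2 in CTRL cells was -1.30 in PC9 (SE 0.0653, adjusted p = 3.30e-09) and 0.75 in HCC4006 (SE 0.0788, adjusted p = 2.06e-06). The difference between the lines, 2.05, was the most positive among the 10 genes (adjusted p = 1.35e-12). In YAP1 KO cells the OT difference was -1.80 in PC9 (adjusted p = 9.94e-11), and in HCC4006 it did not pass at -0.16 (interval -0.33 to 0.01, adjusted p = 0.0791), though it did with median-of-ratios scaling (-0.23, adjusted p = 0.0159) and without replicate 1 of HCC4006 CTRL OT or replicate 3 of HCC4006 YAP1 KO OT (adjusted p = 0.0425 and 0.0322). Under OT YAP1 KO cells had less EFNB2 than CTRL cells, by 0.23 in PC9 (difference -0.23, adjusted p = 0.0116) and by 0.96 in HCC4006 (difference -0.96, adjusted p = 1.95e-06). In HCC4006 that is a 2.23-fold lower mean. Under DMSO the differences were 0.27 for PC9 (adjusted p = 0.00595), against -0.05 for HCC4006 (adjusted p = 0.751). The interaction was negative in each line, -0.50 for PC9 (adjusted p = 0.00198), against -0.91 for HCC4006 (adjusted p = 0.000169), and a difference of -0.41 between the lines did not pass (adjusted p = 0.0678). It passed in 4 of 24 fits that left out 1 library, most clearly without replicate 3 of HCC4006 CTRL OT (-0.48, adjusted p = 0.0263).

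The make-up of the 6 class B genes differed between the lines. EPHB2 supplied 15.4% of their summed FPKM in untreated PC9 CTRL cells and 22.9% under OT, and 51.7% and 49.2% in HCC4006. EFNB2 supplied 18.3% in untreated PC9 CTRL cells, 22.8% in YAP1 KO cells, and 8.44% and 6.47% with OT. In HCC4006 its share was 5.89% and 5.70% without treatment, 10.7% in treated CTRL cells and 5.82% in treated YAP1 KO cells. The class B sum was 59.2, 58.1, 44.9 and 47.9 FPKM in PC9 in the order CTRL DMSO, YAP1 KO DMSO, CTRL OT and YAP1 KO OT, and 67.7, 67.0, 69.3 and 57.1 in HCC4006.

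**Figure D5:**
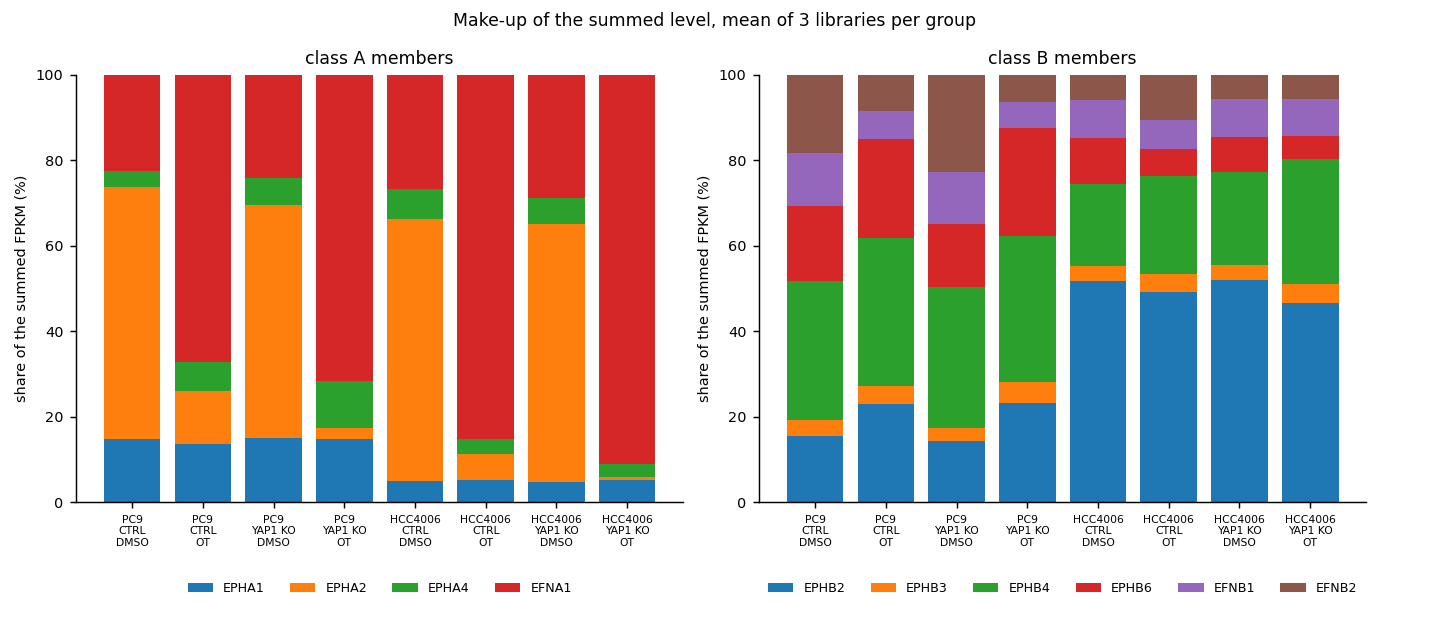
Share of each gene (percent, axis from 0 to 100) in the summed FPKM of the 4 class A genes (left) and of the 6 class B genes (right), mean of 3 libraries for each of the 8 groups. EPHA2 takes 59.1% and 61.4% of the class A sum in untreated control cells and 2.57% and 0.760% in treated YAP1 KO cells, while EPHB2 takes 46.6% to 52.0% of the class B sum in HCC4006.

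Of the other 12 EPH and ephrin genes, EPHA10, EFNA3, EFNA4, EFNA5 and EFNB3 passed the filter of 1 FPKM in at least 3 libraries in PC9, and EPHA3, EPHA6 and EFNA2 passed as well in HCC4006. EPHA5, EPHA7, EPHA8 and EPHB1 passed in neither and stayed at or below 1.204 FPKM. With OT 2 of the 5 rose in PC9 CTRL cells and 1, EPHA10, fell, where 32.0% and 40.9% of all genes did, and in HCC4006 CTRL cells 7 of the 8 rose and 1, EPHA3, did not pass (0.14, adjusted p = 0.166), where 45.0% of all genes rose and 36.6% fell. These counts are a description, since EPHA10 in HCC4006 reached 1 FPKM only in treated libraries and EFNB3 in PC9 only in YAP1 KO libraries. EFNA3 and EFNA4, class A ligands that lie beside EFNA1 on chromosome 1 in RefSeq, rose in CTRL cells of both lines. EFNA4 changed by 0.39 in PC9 and 0.69 in HCC4006 CTRL cells (adjusted p = 1.62e-05 and 1.61e-07), and EFNA3 by 0.27 and 0.77 (adjusted p = 0.00303 and 6.37e-06). In YAP1 KO cells EFNA4 changed by 0.45 and 0.96, and EFNA3 by 1.07 in HCC4006, while EFNA3 did not pass in PC9 (0.11, adjusted p = 0.163). RefSeq also lists the readthrough genes EFNA4-EFNA3 and ADAM15-EFNA4, whose reads cannot be told apart from theirs.

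EFNB3, the remaining class B ligand, rose with OT in HCC4006 from 1.45, 1.44 and 1.59 FPKM to 6.45, 5.70 and 5.60 in CTRL cells, and from 1.33, 1.48 and 1.54 to 6.36, 6.43 and 5.53 in YAP1 KO cells. The treated libraries were all above the untreated ones, and the genotypes overlapped. In PC9 its CTRL libraries had 0.307, 0.117 and 0.227 FPKM under DMSO and 0.448, 0.352 and 0.291 under OT. PC9 YAP1 KO cells had 1.14, 1.45 and 1.23 FPKM under DMSO and 2.46, 2.49 and 2.90 under OT. In PC9 the genotypes did not overlap, and since EFNB3 entered the tests of this line only through its YAP1 KO libraries, these levels are given without a test.

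Marker sums moved with OT. For the 9 epithelial markers the sum in HCC4006 was 6060.0 to 6410.0 FPKM in untreated and 4360.0 to 4730.0 in treated CTRL cells, and 4910.0 to 5190.0 and 3100.0 to 3150.0 in YAP1 KO cells. In PC9 these sums were 6500.0 to 6640.0, 9290.0 to 9580.0, 5870.0 to 6050.0 and 7760.0 to 7990.0 in the same order. Keratins made up most of these sums, with KRT7 alone at 1440.0 to 3440.0 FPKM in HCC4006 and 1530.0 to 2890.0 in PC9. In these lines EPCAM did not exceed 335.0 and 375.0 FPKM, and CDH1 102.0 and 26.0. The sums therefore do not show how the markers other than keratins moved. Some genes known from other cell types also moved in HCC4006. The summed level of 6 endothelial markers was 0.333 to 0.477 FPKM in untreated and 5.33 to 6.70 in treated CTRL cells, and 0.224 to 0.279 and 4.61 to 5.40 in YAP1 KO cells, while PECAM1, TEK and TIE1 stayed under 0.1 FPKM in every HCC4006 library. For 6 fibroblast markers the sums were 3.5 to 3.84 and 19.3 to 20.5 in CTRL cells and 2.37 to 2.66 and 7.29 to 7.71 in YAP1 KO cells, with COL3A1 and PDGFRB under 0.1 throughout. For 6 leukocyte markers they were 23.4 to 26.3 and 85.8 to 88.3, and 22.7 to 24.9 and 110.0 to 112.0, with PTPRC and CD3E under 0.1. For 6 neuronal markers, nearly all of it TUBB3, the sums were 97.6 to 107.0 and 133.0 to 137.0, and 81.3 to 90.1 and 101.0 to 106.0, with SNAP25, SYN1 and STMN2 under 0.1. Of the endothelial, fibroblast and leukocyte markers 1, 2 and 3 reached 1 FPKM in at least 3 libraries, led by KDR, COL1A2 and CD68 at up to 5.81, 16.0 and 108.0 FPKM. In PC9 the sums of these lists and of the neuronal one over all groups were 0.649 to 1.16, 1.38 to 2.71, 29.7 to 40.1 and 30.1 to 53.1. Their part in the changes of the EPH and ephrin genes was not tested.

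Genes through which EPH receptors signal changed in both directions. Of 30 forward signalling effectors 26 were tested in PC9, where 6 rose with OT in CTRL cells, 15 fell and 5 did not pass, and 28 in HCC4006, where 13 rose, 9 fell and 6 did not pass. Their median difference was -0.14 in PC9 and 0.02 in HCC4006, where that of all genes was -0.04 and 0.09. Over all genes 32.0% rose and 40.9% fell in PC9 and 45.0% and 36.6% in HCC4006, and the HCC4006 counts are near these shares. The Src-family kinase FYN rose (1.40 and 0.76), as did ITSN1, an exchange factor for Cdc42 that acts with EPHB2 (0.69 and 0.97), and TIAM1, an exchange factor for Rac, fell (-0.98 and -1.08). Of 13 partners in reverse signalling, 3 of 11 tested rose and 4 fell in PC9, and 5 of 12 rose and 4 fell in HCC4006, near the same shares of all genes. STAT3, a transcription factor that ephrin-B1 can engage, rose (0.87 and 1.33), while RGS3, a regulator of G protein signalling that binds ephrin-B, fell (-0.43 and -0.70).

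Of 15 genes of shedding, turnover and dephosphorylation 13 were tested in each line. With OT 8 rose and 4 fell in PC9 CTRL cells, beside 32.0% and 40.9% of all genes, and in HCC4006 8 rose and 1 fell, beside 45.0% and 36.6%. Their medians were 0.12 and 0.36, where those of all genes were -0.04 and 0.09. MMP14, a membrane metalloproteinase that cleaves EPHA2, rose by 1.66 in PC9, from 5.34 to 19.0 FPKM, and by 2.26 in HCC4006, from 10.96 to 56.1 FPKM (adjusted p = 8.87e-11 and 5.54e-13). The ubiquitin ligase CBLB rose by 1.64 and 1.72, and RHBDL2, a rhomboid protease that can cleave ephrin-B3, by 0.94 and 2.0. In YAP1 KO cells under OT, compared with CTRL cells under OT, 5 of these 13 passed as higher and 4 as lower in PC9, beside 28.5% and 25.2% of all genes, and 1 and 3 in HCC4006, beside 27.2% and 16.4%. ADAM10, a protease of ephrin-A ligands, was higher in each line (0.13 and 0.29). INPPL1, a lipid phosphatase that binds EPHA2, and the receptor phosphatase PTPRJ were lower (-0.15 and -0.21, and -0.45 and -0.21).

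Among the forward effectors 11 passed as higher in PC9 YAP1 KO cells under OT and 7 as lower, beside 28.5% and 25.2% of all genes, and 9 and 8 in HCC4006, beside 27.2% and 16.4%. The regulatory PI3-kinase subunit PIK3R1 (0.73 and 0.54) and the adaptor GRB7 (0.38 and 0.60) were higher, and FYN was lower (-0.38 and -0.66). Of the reverse signalling partners 3 passed as higher and 3 as lower in PC9, and 4 and 3 in HCC4006, near the same shares. GRIP1, a scaffold that binds the tail of ephrin-B, was higher in each (0.20 and 0.63).

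The genes whose profiles were most like those of the 10 were found by Pearson's r over the 24 libraries, after log2 values were centred on the mean of each line, among 13792 other genes. These are descriptions, since the libraries share treatments and genotypes and each gene was picked for its r. EPHA2 was most like DIAPH3, a formin (r = 0.992), and NT5DC2 (0.990). EFNA1 was most like HBP1, a transcriptional repressor (0.996), and the protease PRSS8 (0.995). For EFNB2 these were HBEGF, a ligand of EGFR (0.956), and FOCAD (0.947), for EFNB1 TRIM14 (0.967) and the vitamin D receptor VDR (0.966), and for EPHA4 ASMTL (0.939) and NLRP2 (0.928). EPHB6 was most like GCNT3 (0.934) and MAP3K9 (0.909), EPHB4 most like YLPM1 (0.916) and C15orf38 (0.913), and EPHA1 most like USP19 (0.913) and CMBL (0.909). EPHB2 came with WNT7B (0.904) and CHPF2 (0.876). EPHB3 had the lowest leading values, 0.815 with KIAA1549 and 0.770 with TULP3. Within each line, r was at least 0.989 for the pairs of EPHA2 and EFNA1, but some other pairs were weaker in 1 line. In PC9 and HCC4006, EPHA4 had 0.986 and 0.767 with ASMTL and 0.986 and 0.676 with NLRP2. EFNB1 had 0.989 and 0.718 with VDR, and EPHB6 had 0.697 and 0.974 with GCNT3.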

How the data were processed

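Messenger RNA was extracted with TRIzol and made into 24 libraries with a stranded kit, as the protocols in the labels say. FPKM values in 1 table were deposited by the authors, with a column per library and 25365 rows named by symbol, of which 28 are date-like. Per the submitters' processing notes the tools were STAR 2.5.1b, Cufflinks 2.2.1 and DESeq2 1.10.1, with hg19 and GRCh37 as builds, and no role is stated for any. Count models were not used, because FPKM is a normalized value.

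Each line's 12 libraries, and the 24 together for differences between lines, were fitted on log2(FPKM + 1) in limma 3.58.1 (R 4.3.3), with group means only and empirical Bayes moderation with a trend. Genes needed FPKM of at least 1 in at least 3 libraries of the fit, which left 12685, 13113 and 13996. All 10 genes passed in each. The median residual SD was 0.0696, 0.0896 and 0.0832, with 8, 8 and 16 degrees of freedom. A call is a Benjamini-Hochberg adjusted p under 0.05 over all genes tested. The fits were also run on simulated data in which far fewer genes changed than with OT here. That run therefore does not show their error rate in these data.

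The genes and lists were chosen with earlier results of these data known. Beside the 10 genes, YAP1 and the rest of the family, the text names up to 3 genes per list called the same way in both lines with the largest mean change, and the 2 genes most like each of the 10. A gene that this rule names is not reported here. Alternatives were a pseudocount of 0.1, no filter or one at FPKM of 5, median-of-ratios scaling, an equal FPKM sum, a replicate block, leaving out each library, and for line differences the filter within each line. Protein sequences were not used here.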

Additional observations from a re-analysis of the deposited data

Results flagged for a closer look

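In 35 cases the effect on 1 of the 10 genes differed between 2 groups by a test of the difference itself, at an adjusted p under 0.05 with limma. None is explained here, and all are log2(FPKM + 1) differences from groups of 3 libraries. The cases share libraries, so they are not independent of each other.

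In PC9 the OT response of YAP1 KO cells differed from that of CTRL cells for 8 genes. Over all genes tested 13.2% had a more positive and 13.8% a more negative response in YAP1 KO cells. The response of the 8 was as follows. It was more positive for EPHB3 (0.55), EPHB6 (0.46), EPHA1 (0.43), EPHA4 (0.40), EFNA1 (0.38) and EPHB2 (0.21), and more negative for EPHA2 (-1.17) and EFNB2 (-0.50). In HCC4006, where 10.5% of all genes were more positive and 8.18% more negative, the response differed for 5. It was more positive for EPHA4 (0.32) and EFNA1 (0.30) and more negative for EPHA2 (-1.66), EFNB2 (-0.91) and EPHB2 (-0.34). Of these HCC4006 values that of EPHA4 was lost in 11 of 12 fits that left out 1 library (adjusted p up to 0.103, without replicate 2 of HCC4006 YAP1 KO DMSO) and with a pseudocount of 0.1, no filter or either rescaling, and that of EPHB2 in 3 of 12 (adjusted p up to 0.0592, without replicate 3 of HCC4006 YAP1 KO DMSO) and with an equal FPKM sum. In PC9 EPHB2 was lost in 5 of 12 (adjusted p up to 0.0707, without replicate 3 of PC9 YAP1 KO OT), and EPHA4 with a pseudocount of 0.1 (adjusted p = 0.0559).

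The OT response of CTRL cells differed between the lines for 8 genes, where it was more positive in HCC4006 for 39.3% of all genes and more negative for 26.0%. It was more positive in HCC4006 for EFNB2 (2.05), EFNB1 (0.76), EPHB4 (0.56) and EPHB3 (0.45), and more negative for EPHA4 (-1.40), EPHA2 (-1.01), EPHB6 (-0.66) and EPHB2 (-0.20). The EPHB2 value was lost in 7 of 24 fits that left out 1 library (adjusted p up to 0.113, without replicate 3 of HCC4006 CTRL OT) and with an equal FPKM sum (-0.03, adjusted p = 0.789), and was -0.30 with median-of-ratios scaling.

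The difference between YAP1 KO and CTRL cells under DMSO was more positive in HCC4006 for EPHA2 (0.39) and EFNA1 (0.30) and more negative for EPHA4 (-0.46) and EFNB2 (-0.32). Over all genes the shares were 15.7% and 13.7%. Under OT that difference was more positive for EFNA1 (0.22) and more negative for EFNB2 (-0.73), EPHB6 (-0.57), EPHA4 (-0.53), EPHB2 (-0.44) and EPHB3 (-0.42), beside 24.4% and 18.0% of all genes. The EFNB2 value under DMSO was lost in 5 of 24 fits that left out 1 library and the EFNA1 value under OT in 3, with adjusted p up to 0.0761 (without replicate 3 of PC9 CTRL DMSO) and 0.0625 (without replicate 2 of PC9 CTRL OT). An equal FPKM sum also ended both (adjusted p = 0.107 and 0.0576), and median-of-ratios scaling ended the latter (adjusted p = 0.0822).

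The interaction of genotype and treatment was more negative in HCC4006 for EPHB3 (-0.67), EPHB2 (-0.55), EPHA2 (-0.49) and EPHB6 (-0.46). Over all genes it was more positive there for 7.50% and more negative for 6.82%.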

How the results depend on the processing

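No difference of the 10 genes changed sign among those called, under any alternative run. The number called moved by more than 1.5 times in 4 cases: with libraries rescaled to the same FPKM sum, 8 in place of 5 for YAP1 KO under OT in PC9, 1 in place of 3 for YAP1 KO under DMSO in HCC4006, and 3 in place of 5 for the HCC4006 interaction; and with the replicate block 1 in place of 3 for YAP1 KO under DMSO in HCC4006. Leaving out 1 library gave 1 to 3 for the latter and 3 to 5 for the HCC4006 interaction, while all other counts stayed within 1.5 times the reported ones. The share of higher calls among all genes called moved by over 10 points with an equal sum from 55.1% to 66.6% (OT in HCC4006 CTRL), from 48.9% to 60.7% (PC9 interaction), from 51.5% to 61.6% (YAP1 KO under DMSO in HCC4006) and from 60.2% to 72.5% (line difference of the OT response in CTRL), and from 62.3% to 49.9% (YAP1 KO under OT in HCC4006) with median-of-ratios scaling. Of 160 results of single genes, 155 kept their side of the threshold with a pseudocount of 0.1, 157 with no filter, 151 with median-of-ratios scaling, 141 with an equal sum and 154 with the replicate block, which ended the calls of the EPHB2 interaction in PC9 and of EPHA4 and EPHB4 under DMSO and the EPHA4 interaction in HCC4006 (adjusted p of 0.0502 to 0.0584) and made 2 others, EFNA1 under OT in PC9 and the line difference of EPHB4 under DMSO (adjusted p = 0.0494 and 0.0479). At FPKM of 5 it was 133 of 134, with the filter within lines 60 of 60, and when leaving out 1 library 2554 of 2640. The labels do not say that a replicate number marks a shared day or culture. Deviations of same-numbered libraries correlated weakly, at -0.264 to 0.161 in PC9 and -0.150 to 0.236 in HCC4006. In these lines 3 and 5 of 12 libraries correlated best with their own number. Such values cannot settle whether the numbers pair the libraries. Absolute depth is unknown, so no counting error can be given for low values such as EPHA2 in treated HCC4006 YAP1 KO cells.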
